A study of Homo sapiens with 11 samples.

Results

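The apolipoprotein genes examined here were APOA1, APOA2, APOB, APOC1, APOD and APOE, chosen by name from the rows of a gene count table. The rule named 7 genes, 6 of them were among the 19990 genes of the table, and the seventh, APOM, was not analysed here. Apolipoproteins are the protein part of lipoprotein particles, which carry cholesterol and triglyceride through blood and tissue fluid. APOB is the structural protein of very low and low density lipoproteins, and APOA1 and APOA2 are the main proteins of high density lipoprotein. APOC1 and APOE are exchangeable proteins that move between particles, and APOE is the ligand through which remnant particles bind their receptors on cells. APOD is a lipocalin, a small carrier of lipids that belongs to another protein family. Liver, intestine and yolk sac endoderm make APOB and APOA1, whereas APOE and APOD are also made in many tissues outside the liver.

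The samples were wells of cardiomyocytes differentiated from WTC11, a line of human induced pluripotent stem cells in wide use, at one passage. Differentiation used the WNT activator CHIR99021 followed by the WNT inhibitor IWP2, and all wells were then kept in RPMI1640 with B27 that contained insulin. Wells were lysed at Day 30 (n = 4), Day 60 (n = 3) and Day 113 (n = 4) of the same long-term culture, and no genotype or further agent differed between the days. Poly(A) RNA of each whole well was sequenced, so a lower level could reflect fewer cells of a type or less RNA per cell, and these cannot be told apart. The labels name one line and parallel wells, and they name no separate differentiations: the p-values below measure the spread between these wells only, and the day of culture and the day of collection coincide.

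The 11 libraries held 24071375 to 34546715 counts. All 11 markers of the cardiomyocyte list were in the table, and their summed level was 32157 to 44552 CPM (counts scaled to 1000000 per library) over all wells, with the markers of the labelled cell type abundant in every well. Markers of other cells were present too. The 16 secreted liver and yolk sac proteins of the hepatic list, such as AFP and ALB, summed to 547 to 1613 CPM at Day 30, 48.0 to 56.5 CPM at Day 60 and 13.0 to 49.2 CPM at Day 113. The fibroblast list of 10 genes summed to 3357 to 7713 CPM at Day 30, 2074 to 3575 CPM at Day 60 and 5454 to 13103 CPM at Day 113. One well stood apart among the Day 30 wells: in replicate 4 all 16 hepatic markers were lowest, at a median of 38.5% of the mean of the other 3 wells, while 0 of 11 cardiomyocyte markers were lowest there. The same well was lowest for all 5 apolipoproteins detected at Day 30. This was not limited to hepatic markers. Among Day 30 wells it was also lowest in the summed endoderm and gut, macrophage, fibroblast, epicardial, endothelial and pluripotent markers. It was not lowest in the smooth muscle, Schwann and proliferation sums. Of 15431 genes of at least 1 CPM at Day 30, 4257 were lowest in that well. This is near the 1 gene in 4 that would be lowest in any given well if the 4 wells were alike. The median of these genes there was 99.6% of the mean of the other 3 wells. Because the hepatic markers and the apolipoproteins were lowest in that well, the changes of the 6 genes from Day 30 are also given without it.

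Per kilobase of exon, which allows levels of different genes to be set side by side, APOE was the highest of the 6 genes on every day. At Day 30 its level was 108 ± 10.9 CPM per kilobase (SD, n = 4), followed by APOA1 at 46.3 ± 16.5, APOA2 at 11.1 ± 5.68, APOC1 at 2.87 ± 1.18, APOB at 2.19 ± 0.932 and APOD at 0. The wells of APOC1 and APOB overlapped on this scale at Day 30, so these neighbours in the order did not differ beyond their spread. At Day 113 APOE stood at 83.1 ± 21.7 CPM per kilobase and APOA1 at 3.56 ± 1.43. APOD, at 0.759 ± 0.429, came next, and its wells overlapped those of APOC1 at 0.431 ± 0.221. APOA2 and APOB were the lowest at Day 113, at 0.147 ± 0.118 and 0.0339 ± 0.0326 CPM per kilobase.

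**Figure D1:**
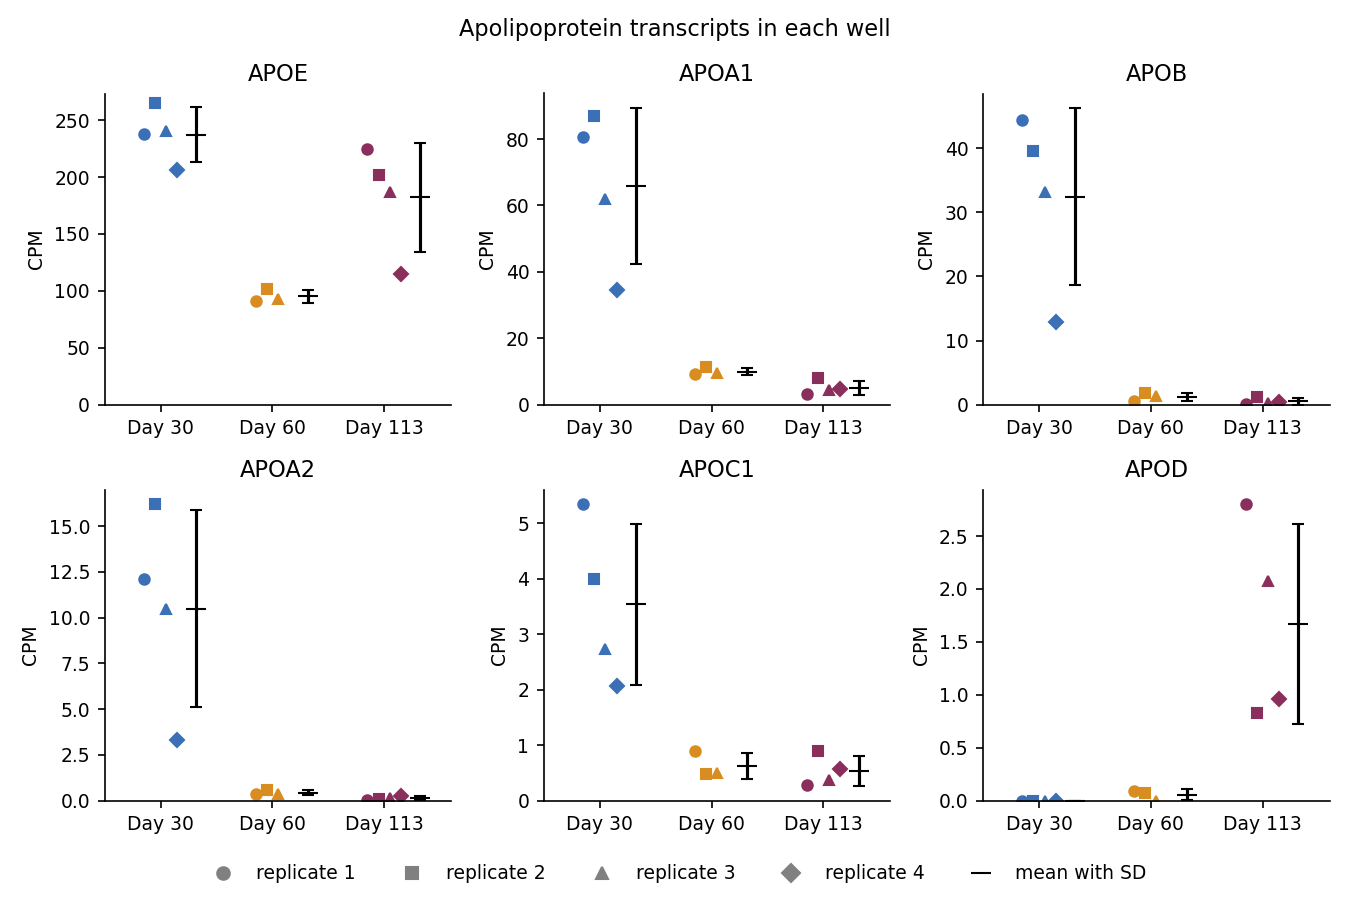
Level of each apolipoprotein gene (CPM, linear axes that start at 0) in each well at Day 30, Day 60 and Day 113; symbols mark the well replicate, and the bar to the right of each group gives its mean with SD (n = 4, 3 and 4). APOA1, APOA2, APOB and APOC1 were highest at Day 30, APOE dipped at Day 60, and APOD was detected above 3 counts at Day 113 only.

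The first question was how the apolipoproteins of liver-type particles changed between Day 30 and Day 60. APOA1, APOA2, APOB and APOC1 all fell, and APOE fell by a smaller factor. Thus 5 of the 6 genes were called lower and 0 higher by edgeR's quasi-likelihood test at a Benjamini-Hochberg adjusted p under 0.05, where 10.3% of all 19990 genes were called in either direction, 4.39% higher and 5.91% lower. The wells of Day 30 and Day 60 did not overlap for these 5 genes; this was true of 24.8% of all genes.

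APOB (chromosome 2, 21001429 to 21044073, minus strand, GRCh38) encodes the scaffold of very low density lipoprotein. Its level was 44.3, 39.5, 33.1 and 12.9 CPM in the 4 wells of Day 30, 0.574, 1.81 and 1.29 CPM in the 3 wells of Day 60, and 0.115, 1.20, 0.257 and 0.441 CPM in the 4 wells of Day 113. Every Day 30 well lay above every later well, and the Day 60 and Day 113 wells overlapped. From Day 30 to Day 60 APOB fell by 4.74 ± 0.556 on the log2 scale (SE), which is 26.6-fold, with an edgeR adjusted p of 7e-05. Without Day 30 replicate 4 it fell by 5.00 on the log2 scale. The APOB gene overlaps an unconfirmed transcript model on the other strand that is not among the rows used here.

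APOA2 (chromosome 1, 161222292 to 161223631, minus strand) encodes the second protein of high density lipoprotein. It read 12.1, 16.2, 10.5 and 3.33 CPM at Day 30, 0.351, 0.590 and 0.347 CPM at Day 60, and 0.0289, 0.0750, 0.171 and 0.281 CPM at Day 113. The Day 113 values rest on 1, 2, 6 and 7 counts, so single counts set much of their order. The fall from Day 30 to Day 60 was 24.5-fold, or 4.61 ± 0.575 on the log2 scale, with an edgeR adjusted p of 0.00012, and without Day 30 replicate 4 the gene fell by 4.91 on the log2 scale.

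APOA1 (chromosome 11, 116835751 to 116837950, minus strand), the main protein of high density lipoprotein, read 80.5, 86.8, 61.9 and 34.4 CPM at Day 30, 9.26, 11.2 and 9.43 CPM at Day 60, and 3.18, 7.95, 4.51 and 4.65 CPM at Day 113. The 3 days formed 3 groups of wells that did not overlap. From Day 30 to Day 60 APOA1 fell 6.62-fold, by 2.73 ± 0.308 on the log2 scale, with an edgeR adjusted p of 4.5e-05. Without Day 30 replicate 4 it fell by 2.94. Exons of APOA1 overlap those of the antisense gene APOA1-AS, and as the sources used here do not say whether strand was used in counting, reads of the pair may be mixed.

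APOC1 (chromosome 19, 44914247 to 44919349, plus strand) encodes a small exchangeable protein that slows the clearance of triglyceride-rich particles. Its level was 5.35, 4.00, 2.73 and 2.06 CPM at Day 30, 0.894, 0.479 and 0.505 CPM at Day 60, and 0.289, 0.900, 0.371 and 0.562 CPM at Day 113. The Day 30 wells lay above all others, and the later days overlapped. The fall from Day 30 to Day 60 was 5.60-fold, 2.49 ± 0.527 on the log2 scale, with an edgeR adjusted p of 0.0066. It fell by 2.67 without Day 30 replicate 4.

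The hepatic list moved with these 4 genes. All 16 of its markers were called lower at Day 60 than at Day 30, with a median log2 change of -4.70, against -0.01 over all genes tested. Of 11 markers of endoderm and gut epithelium, 9 were called lower too. Over all genes 5.91% were called lower in this comparison. The sum of APOA1, APOA2, APOB and APOC1 was 142, 146, 108 and 52.6 CPM in Day 30 wells 1 to 4, where the hepatic list summed to 1516, 1613, 1223 and 547 CPM. The lowest well was thus the same in both sums. At Day 113 the sum of the 4 genes was 3.61, 10.1, 5.31 and 5.94 CPM beside hepatic sums of 13.0, 49.2, 29.5 and 32.1 CPM, so replicate 1 was lowest and replicate 2 highest in both. The make-up of the hepatic sum changed between days. AFP averaged 500, 5.95 and 1.45 CPM at Day 30, Day 60 and Day 113, and ALB 308, 31.6 and 15.7 CPM. Without AFP and ALB the list summed to 194 to 554 CPM at Day 30, 13.5 to 18.1 CPM at Day 60 and 5.02 to 18.4 CPM at Day 113. The proportions that follow use the whole list and so depend on AFP and ALB. In proportion to the hepatic list, APOB made 2.35 to 2.92 CPM per 100 CPM of list at Day 30, 1.20 to 3.20 at Day 60 and 0.871 to 2.44 at Day 113, ranges that overlap. APOA1 made 5.07 to 6.28 CPM per 100 CPM of list at Day 30, 17.2 to 19.8 at Day 60 and 14.5 to 24.4 at Day 113, and APOC1 0.223 to 0.377, 0.849 to 1.86 and 1.26 to 2.22. For APOA1 and APOC1 the Day 30 wells lay below all later wells in proportion to the list. APOA2 made 0.609 to 1.0 CPM per 100 CPM of list at Day 30, 0.631 to 1.04 at Day 60 and 0.152 to 0.876 at Day 113, ranges that overlap. The part of such cells in the falls was not tested.

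**Figure D2:**
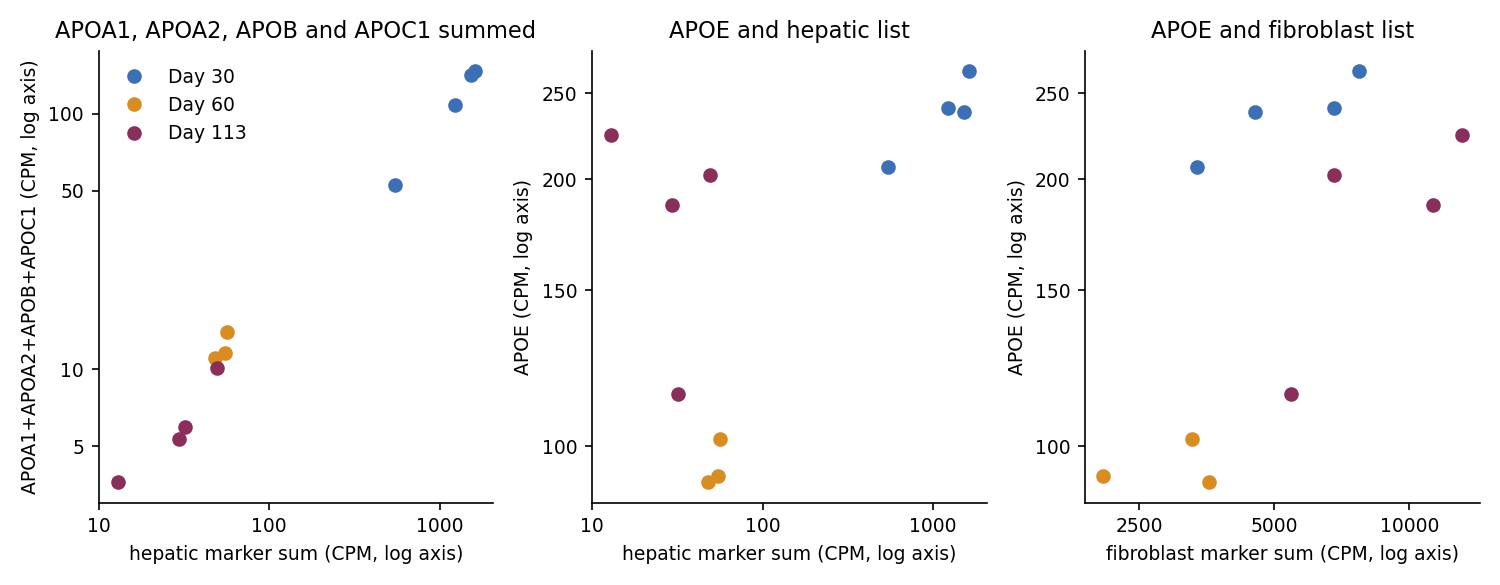
Each point is 1 well, coloured by day, on log axes: left, the summed CPM of APOA1, APOA2, APOB and APOC1 against the summed CPM of the 16 hepatic markers; middle, APOE against the same sum; right, APOE against the summed CPM of the 10 fibroblast markers. The 4-gene sum ran from 3.61 to 146 CPM along with the hepatic sum. APOE lay at 206 to 265 CPM at Day 30, 91.1 to 102 CPM at Day 60 and 115 to 225 CPM at Day 113.

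The 4 genes did not fall by equal factors. The ratio of APOA1 to APOB counts was 1.82 to 2.67 in the Day 30 wells, 6.18 to 16.1 in the Day 60 wells and 6.62 to 27.5 in the Day 113 wells. The ratio of APOA1 to APOA2 was 5.35 to 10.3 at Day 30, 18.9 to 27.2 at Day 60 and 16.6 to 110 at Day 113. For both ratios every Day 30 well lay below every later well, and the Day 60 and Day 113 wells overlapped. These ratios are given as a description with no test.

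APOE (chromosome 19, 44905754 to 44909393, plus strand) followed another course. It read 238, 265, 240 and 206 CPM in the Day 30 wells, 91.1, 102 and 92.6 CPM in the Day 60 wells, and 225, 202, 187 and 115 CPM in the Day 113 wells. Every Day 60 well lay below every well of the other days, and replicate 4 of Day 113 came nearest to them. APOE fell from Day 30 to Day 60 by 1.32 ± 0.173 on the log2 scale (2.49-fold, edgeR adjusted p = 0.00019) and rose from Day 60 to Day 113 by 0.94 ± 0.171 (1.91-fold, edgeR adjusted p = 0.0011). The later log2 change minus the earlier one was 2.26 ± 0.316, with an edgeR adjusted p of 0.0008; the Day 60 libraries enter both changes. The first log2 change was -1.38 without Day 30 replicate 4.

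Between Day 30 and Day 113 the log2 change of APOE was -0.38 ± 0.154, with an edgeR adjusted p of 0.067, which missed the threshold. This call depended on the setting: the adjusted p was 0.0428 with upper-quartile scaling, 0.0453 with limma-voom, 0.0395 with DESeq2 and 0.0183 without Day 113 replicate 1, and in each of these the change remained negative. The means of the days were 237 ± 24 and 182 ± 47.6 CPM (SD, n = 4 each).

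The fibroblast list changed in the same directions as APOE in part of its genes, mostly different genes in the 2 intervals. At Day 60 against Day 30, 3 of 10 were called lower and 1 higher, where 5.91% and 4.39% of all genes were. At Day 113 against Day 60, 6 were called higher and 1 lower, where 12.9% and 11.1% of all genes were. COL1A2 alone was called lower and then higher, and PDGFRA was called lower in both. COL1A1, a fibrillar collagen chain, averaged 1681 ± 564 CPM at Day 30, 807 ± 226 CPM at Day 60 and 3076 ± 1416 CPM at Day 113. Its fall to Day 60 missed the threshold (edgeR adjusted p = 0.051), and its later rise was called (edgeR adjusted p = 0.00081). KRT8 and KRT18, a pair of epithelial keratins on the endoderm and gut list, were called lower at Day 60 and higher again at Day 113. Most of that list did not return. Of its 11 genes 9 were called lower at Day 60 against Day 30. At Day 113 against Day 60, 3 were called higher, 1 lower and 7 neither. EPCAM, on the same list, averaged 59.4 CPM at Day 30, 1.93 CPM at Day 60 and 0.967 CPM at Day 113. Of the 12 macrophage markers fixed as a list, 2 were analysed, CD68 and CSF1R, and their sum was 1.99 to 4.05 CPM at Day 30, 1.10 to 1.37 CPM at Day 60 and 2.08 to 3.79 CPM at Day 113. Every Day 60 well was thus below every other well in this sum as in APOE, while neither gene passed the test in any comparison. APOE per 100 CPM of the hepatic list was 15.7 to 37.7 CPM at Day 30, 169 to 190 CPM at Day 60 and 357 to 1729 CPM at Day 113. The part of fibroblasts or other cells in the course of APOE was not tested.

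APOC1 and APOE lie 4853 bases apart on chromosome 19. The ratio of APOE to APOC1 counts was 44.6 to 100 in the Day 30 wells, 102 to 212 in the Day 60 wells and 204 to 778 in the Day 113 wells. Both genes share exonic overlap with one unconfirmed transcript model on the same strand, which is not among the rows used here. TOMM40, a pore protein of the mitochondrial outer membrane whose gene precedes APOE by 2064 bases, was at 52.7 ± 2.29, 54.4 ± 12.1 and 53.9 ± 7.49 CPM on the 3 days, and none of its 3 edgeR adjusted p-values was under 0.05.

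APOD (chromosome 3, 195568702 to 195584205, minus strand) was the only one of the 6 genes called higher at Day 113 against Day 30. It had 0 counts in all 4 wells of Day 30, then 3, 2 and 0 counts in the Day 60 wells and 97, 22, 73 and 24 counts in the Day 113 wells. A count of 0 allows up to 3 counts, which is 0.0987 to 0.115 CPM in these Day 30 libraries, counting error only. At Day 113 its level was 2.80, 0.825, 2.08 and 0.963 CPM, above all other wells, with replicates 1 and 3 the higher pair. Against a floor of 3 counts per library, mean APOD at Day 113 was at least 16.0-fold higher than at Day 30 (edgeR adjusted p = 0.00023). Set against Day 60 it was at least 16.6-fold higher (edgeR adjusted p = 0.0061). These bounds rest on the mean of the Day 113 wells. Without Day 113 replicate 1 they were 12.4-fold against Day 30 and 12.9-fold against Day 60. No fold is given for Day 60 against Day 30, where both days were at or under the floor; the edgeR adjusted p was 0.15.

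Within Day 113, the wells richer in APOD were also higher in the summed fibroblast, smooth muscle and endothelial markers. The fibroblast list summed to 13103 and 11309 CPM in replicates 1 and 3 and to 6793 and 5454 CPM in replicates 2 and 4. Most of this sum came from COL1A1, COL1A2 and COL3A1, which averaged 3076, 2112 and 3623 CPM at Day 113. At Day 113 against Day 30, 6 genes of the list were called higher and 2 lower, LUM and PDGFRA. Over all genes 17.3% were called higher and 17.2% lower. At Day 30, replicates 2 and 3 summed to 7713 and 6800 CPM in the same list, with 0 counts of APOD. The 7 markers of the Schwann, glial and neural crest list that were in the table summed to 49.9 to 54.2 CPM at Day 30, 36.2 to 39.9 CPM at Day 60 and 18.0 to 58.4 CPM at Day 113. ERBB3, a neuregulin receptor, made most of that sum at Day 30 and fell from 46.7 ± 1.92 to 17.4 ± 3.81 CPM at Day 113 (edgeR adjusted p = 1.7e-06). In the same comparison 2 of the 7 genes were called higher, where 17.3% of all genes were. S100B, a calcium-binding protein of glia, was at least 44.1-fold higher (edgeR adjusted p = 5.7e-05). GFAP, a glial filament protein, went from 1.11 ± 0.642 to 5.36 ± 7.71 CPM (edgeR adjusted p = 0.029). The GFAP rise rests on 1 well: replicates 1 to 4 of Day 113 read 1.76, 1.05, 16.9 and 1.72 CPM. The Day 30 wells ran from 0.296 to 1.83 CPM. Of 6 smooth muscle and pericyte genes, 3 were called higher at Day 113 against Day 60, ACTA2, TAGLN and PDGFRB, and the list summed to 1460, 1211, 1244 and 965 CPM in replicates 1 to 4 of Day 113. In the endothelial list 8 of 8 genes were called higher at Day 113 against Day 60, where 12.9% of all genes were, and its sums at Day 113 were 860, 366, 420 and 222 CPM in replicates 1 to 4. The part of these cells in the level of APOD was not tested.

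From Day 60 to Day 113, 3 of the 6 genes were called, where 24% of all genes were: APOE and APOD higher and APOA1 lower. Over all genes 12.9% were called higher and 11.1% lower. The wells of 4 genes did not overlap, against 30.6% of all genes. APOA1 fell by 0.98 ± 0.295 on the log2 scale (1.97-fold, edgeR adjusted p = 0.024). That call was lost with limma-voom (adjusted p = 0.108), with robust dispersions (0.0616) and without any one of Day 60 replicates 2 and 3 and Day 113 replicates 1, 3 and 4 (0.0512 to 0.0783). For APOA2 the log2 change was -1.64 ± 0.651 with an edgeR adjusted p of 0.081; the p was 0.033 with DESeq2, 0.0334 without Day 30 replicate 4 and 0.0436 without Day 113 replicate 4. For APOB it was -1.34 ± 0.604 with an edgeR adjusted p of 0.12, and -2.22 with an adjusted p of 0.0171 without Day 113 replicate 2, the well with its highest level at that day. For APOC1 it was -0.26 ± 0.513 with an edgeR adjusted p of 0.77.

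When Day 113 was set against Day 30, 5 of the 6 genes were called, 4 lower and 1 higher, where 34.5% of all genes were called, 17.2% lower and 17.3% higher. The wells of 5 genes did not overlap, against 35.1% of all genes. APOA2 fell 76.2-fold and APOB 67.3-fold, by 6.25 ± 0.579 and 6.07 ± 0.545 on the log2 scale, with edgeR adjusted p-values of 8.7e-07 and 6.4e-07. APOA1 fell 13.1-fold (log2 change -3.71 ± 0.291, edgeR adjusted p = 1.6e-07) and APOC1 6.69-fold (log2 change -2.74 ± 0.480, edgeR adjusted p = 0.00037). Without Day 30 replicate 4 the log2 changes were -6.55 for APOA2, -6.34 for APOB, -3.92 for APOA1, -2.93 for APOC1 and -0.44 for APOE, the last with an edgeR adjusted p of 0.0556, and the bound for APOD was 16.0-fold. Each of its days is also used in another comparison, so the 3 comparisons are not independent.

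**Figure D3:**
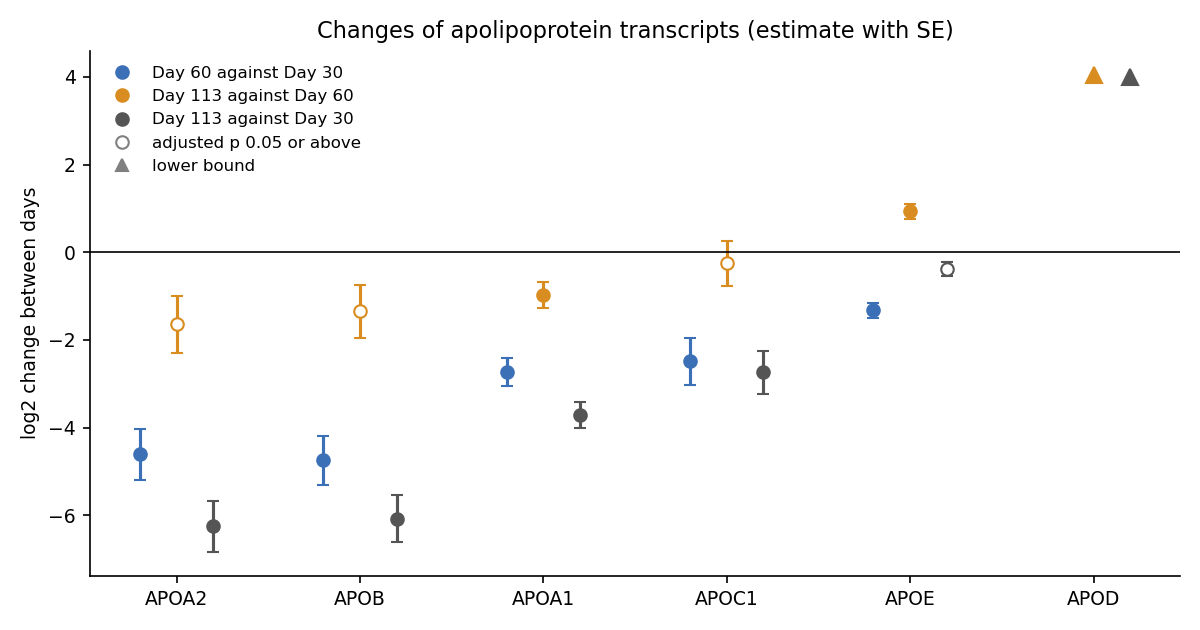
Estimated log2 change of each gene in the 3 comparisons of days, with its standard error; open circles missed the adjusted p threshold of 0.05, and triangles are lower bounds for APOD against a floor of 3 counts. APOA2 and APOB had log2 changes of -6.25 and -6.07 at Day 113 against Day 30, and APOE alone went down at Day 60 and up at Day 113.

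The log2 change of the later interval was also set against that of the earlier one in a test of their difference. For a gene that moved one way this compares the sizes of the changes, and for APOE it reflects a turn in direction. For APOB the later log2 change minus the earlier one was 3.40 ± 1.02, with an edgeR adjusted p of 0.048, and for APOE it was 2.26, as given above; 9.34% of all genes were called in this test, 4.97% with a positive and 4.38% with a negative difference. The difference was 1.75 for APOA1 (adjusted p = 0.051), 2.98 for APOA2 (adjusted p = 0.10) and 2.23 for APOC1 (adjusted p = 0.15), all from edgeR and all above the threshold. The APOB call was lost in 13 of 20 alternatives, with adjusted p-values from 0.00919 to 0.424 over them. Without Day 30 replicate 4, APOA1 (adjusted p = 0.0129) and APOA2 (adjusted p = 0.0342) were also called.

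Promoter sequences were available for APOA2, APOC1 and APOE among the 6 genes, in a RefSeq table on GRCh38.p14. APOA2 and APOE are shown because they fell together at Day 60 by unequal factors, and APOH, another liver apolipoprotein, because it fell as well and holds a motif that they lack. Each line runs 5′ to 3′ on the strand of the gene and leaves out bases that lie in an annotated untranslated region. Capitals mark GTTAAT, part of the site bound by the liver factor HNF1, on either strand, and TATA on the strand of the gene 40 to 20 bases before the start. The TATA search was added after the windows had been read.
APOA2, chr1:161223632-161223878, minus strand: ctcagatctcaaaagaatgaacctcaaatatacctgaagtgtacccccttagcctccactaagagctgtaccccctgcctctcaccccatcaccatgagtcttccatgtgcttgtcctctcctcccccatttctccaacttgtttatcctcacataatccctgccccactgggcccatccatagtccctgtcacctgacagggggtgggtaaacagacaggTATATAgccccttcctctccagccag
APOE, chr19:44905546-44905753, plus strand: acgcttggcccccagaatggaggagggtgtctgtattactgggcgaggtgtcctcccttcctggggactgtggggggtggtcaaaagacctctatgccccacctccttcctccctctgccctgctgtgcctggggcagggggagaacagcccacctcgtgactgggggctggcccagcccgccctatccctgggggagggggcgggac
APOH, chr17:66229423-66229665, minus strand: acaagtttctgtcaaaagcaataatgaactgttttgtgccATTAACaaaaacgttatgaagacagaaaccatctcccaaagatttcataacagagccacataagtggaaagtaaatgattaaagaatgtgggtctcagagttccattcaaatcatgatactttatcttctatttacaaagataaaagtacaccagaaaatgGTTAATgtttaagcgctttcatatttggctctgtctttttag
In the 250 bases before the start, GTTAAT or its complement was held by 6.23% of 35116 promoters of the table and AGGTCA, part of the sites of many nuclear receptors, by 12.1%. Neither was present in the windows of APOA2, APOC1 and APOE. APOH held GTTAAT 49 bases before the start and again on the other strand 210 bases before it. TATA in the stated window was held by 6.17% of promoters, and APOA2 had it 29 and 27 bases before the start. APOE has 3 starts in RefSeq, and only the one whose window is printed above had TATA, 31 bases before it. That stretch is not shown because a second transcript of the gene begins upstream. These matches describe letters only.

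The neighbour of APOA1 on chromosome 11 is APOC3, an inhibitor of lipoprotein lipase, 2678 bases away. APOC3 had 239, 300, 109 and 45 counts at Day 30, 0, 3 and 0 counts at Day 60, and 5, 3, 0 and 0 counts at Day 113. It was at least 60.5-fold lower at Day 60 than at Day 30 (edgeR adjusted p = 0.00051). SIK3, the gene on the other side of APOA1, had a log2 change of -0.22 over the same interval with an edgeR adjusted p of 0.36.

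Of 21 other apolipoprotein genes listed, 12 were in the table. From Day 30 to Day 60, 3 were called higher and 2 lower, with a median log2 change of 0.25 against -0.01 over all genes. The 2 lower ones were APOC3 and APOH; APOH, named here after its values were seen, went from 2.61 ± 1.17 to 0.115 ± 0.10 CPM (edgeR adjusted p = 0.0052). From Day 30 to Day 113, 7 rose and 2 fell, with a median of 0.48 against -0.02 over all genes; 10.3% and 34.5% of all genes were called in the 2 comparisons. CLU, or clusterin, a secreted chaperone also carried on high density lipoprotein, rose from 64.7 ± 7.21 to 129 ± 50.2 CPM (edgeR adjusted p = 0.0019). APOL4, of the intracellular APOL family, was at least 26.0-fold higher at Day 113 than at Day 30 (edgeR adjusted p = 4.8e-05), and APOL2 rose from 30.4 ± 3.04 to 38.2 ± 4.72 CPM (edgeR adjusted p = 0.045).

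Among 16 genes of lipoprotein assembly and secretion, 0 were called higher and 2 lower from Day 30 to Day 60, and 2 higher and 6 lower from Day 30 to Day 113. Over all genes 10.3% and 34.5% were called, so the share called in the list in either direction was near the background at Day 60. By direction, 4.39% of all genes were called higher and 5.91% lower at Day 60, and 17.3% higher and 17.2% lower at Day 113 against Day 30. The list medians were -0.23 and -0.28 on the log2 scale, against -0.01 and -0.02 over all genes. MTTP, the transfer protein that loads lipid onto APOB, is named after its values were seen; it averaged 5.11 ± 1.40, 2.65 ± 0.286 and 1.61 ± 0.622 CPM on the 3 days and was lower at Day 113 than at Day 30 (log2 change -1.66 ± 0.325, edgeR adjusted p = 0.00093). P4HB, the other subunit of that transfer protein and a general protein disulfide isomerase, fell from 588 ± 75.2 CPM at Day 30 to 409 ± 31.3 CPM at Day 60 (edgeR adjusted p = 0.0086). The last enzymes of triglyceride synthesis went apart by Day 113: DGAT1 rose from 28.6 ± 1.27 to 48.3 ± 8.36 CPM (edgeR adjusted p = 0.00025), and DGAT2 fell from 20.6 ± 2.77 to 8.49 ± 0.691 CPM (edgeR adjusted p = 1.1e-05).

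Of 19 genes for receptors that take up lipoproteins, 0 were called higher and 3 lower at Day 60 against Day 30, and 1 higher and 7 lower at Day 113 against Day 30, with medians of -0.17 and -0.07 on the log2 scale. Over all genes 10.3% and 34.5% were called, with medians of -0.01 and -0.02, so the shares of receptors called in either direction were near the background. By direction, 4.39% of all genes were called higher and 5.91% lower at Day 60. At Day 113 against Day 30 these shares were 17.3% and 17.2%, so the receptor calls leaned to the lower side, with no test of this. SCARB1, the receptor for high density lipoprotein, fell from Day 60 to Day 113 by 1.19 ± 0.124 on the log2 scale, from 136 ± 17.9 to 59.6 ± 8.89 CPM (edgeR adjusted p = 1.5e-05). SORL1, a sorting receptor that binds APOE, was at 35.2 ± 7.17 CPM at Day 60 and 19.4 ± 4.61 CPM at Day 113 and fell by 1.36 ± 0.164 on the log2 scale from Day 30 to Day 113 (edgeR adjusted p = 1.2e-05). LRP1, which takes up remnants that carry APOE, averaged 507 ± 34.6, 442 ± 76.0 and 445 ± 124 CPM; it did not pass the test in any comparison.

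Of 20 genes of lipid efflux, lipases and remodelling of high density lipoprotein, 17 were in the table. From Day 30 to Day 60, 1 rose and 5 fell, and from Day 30 to Day 113, 3 rose and 9 fell, with medians of -0.40 and -0.51 on the log2 scale. Over all genes 10.3% were called in the first comparison and 34.5% in the second, 17.3% higher and 17.2% lower, with medians of -0.01 and -0.02. LPL, lipoprotein lipase, which frees fatty acids from particles at the vessel wall and is made by heart muscle, was the one gene of this list that rose in both intervals. It read 0.993, 1.33, 1.38 and 1.72 CPM at Day 30, 5.23, 7.89 and 6.75 CPM at Day 60, and 73.8, 42.7, 58.5 and 42.1 CPM at Day 113. The 3 days did not overlap, and the log2 change from Day 30 to Day 113 was 5.31 ± 0.237 (edgeR adjusted p = 3.9e-10). GPIHBP1, the endothelial protein that anchors lipoprotein lipase and named here after its values were seen, had 0 counts in the Day 60 wells and averaged 2.71 ± 2.41 CPM at Day 113, at least 27.1-fold higher (edgeR adjusted p = 0.0018). ABCA1, which loads cholesterol onto APOA1, fell from 44.9 ± 10.2 CPM at Day 30 to 17.9 ± 4.81 CPM at Day 113, by 1.33 ± 0.209 on the log2 scale (edgeR adjusted p = 0.00015).

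**Figure D4:**
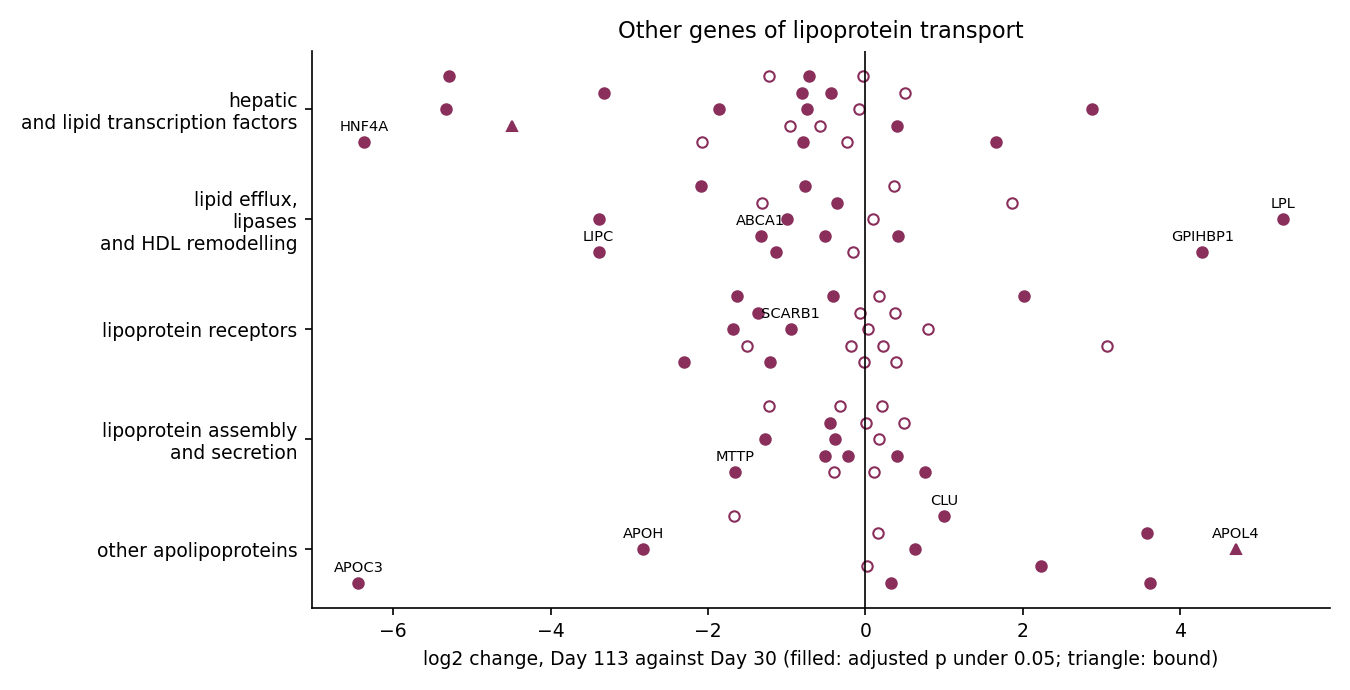
Estimated log2 change at Day 113 against Day 30 for genes of 5 lists around lipoprotein transport, 1 point per gene; filled points passed the adjusted p threshold of 0.05 and triangles are bounds against a floor of 3 counts. LPL lies at 5.31, and APOC3 and HNF4A at -6.44 and -6.37.

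Of 25 listed transcription factors of hepatocytes and lipid metabolism, 22 were in the table. From Day 30 to Day 60, 3 rose and 6 fell, and from Day 30 to Day 113, 3 rose and 11 fell, with medians of -0.37 and -0.77 on the log2 scale against -0.01 and -0.02 over all genes, of which 10.3% and 34.5% were called. HNF4A, a nuclear receptor that drives apolipoprotein genes in liver and is named here after its values were seen, had 140, 224, 187 and 98 counts at Day 30, 10, 11 and 35 counts at Day 60, and 0, 0, 8 and 0 counts at Day 113. It fell by 3.18 ± 0.719 on the log2 scale from Day 30 to Day 60 (edgeR adjusted p = 0.0095), and its lowest Day 30 well was again replicate 4. FOXA3, a forkhead factor of endoderm, averaged 2.28 ± 0.482, 0.890 ± 0.360 and 0 CPM on the 3 days and was at least 22.5-fold lower at Day 113 than at Day 30 (edgeR adjusted p = 8.1e-06). SREBF2, which controls cholesterol synthesis genes, was at 482 ± 31.4 and 465 ± 26.5 CPM at Day 30 and Day 60 and fell to 288 ± 25.7 CPM at Day 113 (log2 change from Day 30 -0.74 ± 0.0913, edgeR adjusted p = 1.5e-05).

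The genes whose course was most like that of each apolipoprotein were ranked over the 11 wells by the root mean square difference of centred log2 CPM, among 15549 genes of at least 1 CPM on average. ALB, serum albumin, was closest to APOA1, at 0.39, against a spread of 1.66 for APOA1 itself. CD24, FGG and AMBP were closest to APOA2, at 0.50 to 0.65, and SERPINA1, CD24 and AHSG to APOB, at 0.53 to 0.67; FGG, AMBP, SERPINA1 and AHSG encode plasma proteins made in the liver. TMEM88, CDKN2B and ESRP1 were closest to APOC1, at 0.47 to 0.53. For APOD they were MSC, THBS2 and SV2B, at 0.49 to 0.52, and for APOE SH3BGRL3, FERMT1 and ITGA6, at 0.13 to 0.17. Among the members, APOA1 and APOC1 were the most alike, at 0.56, followed by APOA2 and APOB, at 0.75. These are descriptions of wells that share a day and a library, with no test.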

How the data were processed

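Gene counts of the 11 wells were used as deposited by the authors: per the submitters' processing notes, reads were processed with STAR 2.5.3a and featureCounts 2.0.3 on hg38. The gene annotation and the strand setting are not given in the sources used here. The authors also deposited TPM values, which were read only as a check and not used: each column summed to 1000000, but the gene length implied by counts and TPM differed between wells, by a median factor of 74.1 over 11210 genes. CPM are counts divided by the library size after TMM scaling (factors 0.966 to 1.04).

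All 11 libraries were fitted together with the day as factor in edgeR 4.0.16 (R 4.3.3), by glmQLFit and glmQLFTest, and p-values were adjusted by Benjamini-Hochberg over the 19990 genes; filterByExpr with a minimum count of 10 removed 0 genes. Alternatives were upper-quartile and RLE scaling, robust dispersions, a filter of 1 CPM in 3 libraries, no filter, a replicate block, only the days compared, a threshold of 0.01, limma-voom (limma 3.58.1), DESeq2 1.42.0 and leaving out each well. Folds against a day at or under 3 counts per library are bounds. Gene positions and exon lengths are from GENCODE release 29.

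The members, lists and tests were chosen with earlier results of these data known. Genes named from a list were among its 4 with the highest mean CPM or its 2 with the smallest adjusted p, and of each apolipoprotein the 3 genes of most like course and the genomic neighbours were named; others are marked where they appear. Counting intervals and floors cover counting error only, and reads carried no molecular identifiers that the sources used here name.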

Additional observations from a re-analysis of the deposited data

Results flagged for a closer look

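For APOB and APOE the change from Day 60 to Day 113 differed from the change from Day 30 to Day 60 in a test of the difference itself, and no other of the 6 genes passed it with all wells. The later log2 change minus the earlier one was 2.26 for APOE (edgeR adjusted p = 0.0008), whose level fell and then rose, and 3.40 for APOB (edgeR adjusted p = 0.048), most of whose fall lay in the first interval. The APOB call was lost in 13 of 20 alternatives, with adjusted p-values up to 0.424. Without Day 30 replicate 4, APOA1 and APOA2 passed as well, with adjusted p-values of 0.0129 and 0.0342 by edgeR. Both intervals use the Day 60 libraries. Dixon's criterion was applied to 11 sets of 4 wells, each 1 gene on 1 day, and marked no well.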

How the results depend on the processing

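The 5 calls at Day 60 against Day 30, 2 of the 3 at Day 113 against Day 60 and the 5 at Day 113 against Day 30 held under every alternative that gave a value, and APOD had no value under the filter of 1 CPM in 3 libraries. The number of genes whose change differed between the intervals was 2, and 1 with an adjusted p of 0.01, with upper-quartile scaling, with robust dispersions and with limma-voom; leaving out one well gave 1 to 4. Leaving out one well gave 5 to 5, 2 to 4 and 5 to 6 members called in the 3 comparisons. The log2 change of APOC1 from Day 60 to Day 113 was -0.63 to 0.081 with one well left out, turning positive without Day 60 replicate 1, and the interval difference of APOD was -0.19 to 2.19, turning negative without Day 60 replicate 3; the cause was not tested. Mean CPM moved by less than 1 SD in 54 of 54 settings.

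Over all genes, 2060, 4790 and 6889 were called in the 3 comparisons and 1868 in the test of intervals. An adjusted p of 0.01 left 937, 2545, 4552 and 618. Leaving out one well gave 1220 to 2618, 3317 to 4735, 5657 to 6977 and 643 to 2221.

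Replicate numbers are shared by the 3 days. Same-numbered wells deviated together by more than 0.1 in 8 of 10 pairs, and a well correlated best with its own number in 16 of 20 cases, a hint from the data only, so the numbers were not used as pairs. With the replicate number as a block, 5, 3 and 6 members were called in the 3 comparisons, APOE being added at Day 113 against Day 30 (adjusted p = 0.00741), and 3 differed between intervals; all genes called were 2474, 4954, 7143 and 2366. Depth limits APOA2, APOB and APOC1 after Day 30, with 1 to 49 counts a well, and APOD before Day 113, with 0 to 3.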
